A study of Canis lupus familiaris with 14 samples.

Results

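Chromosome 26 of the dog carries the immunoglobulin lambda locus, and the genes described here are its multi-exon genes outside that locus. A gene was a member if it lay on chromosome 26, had at least 2 exon intervals after overlapping intervals were merged, and had its smallest start before 24.5 Mb or after 28 Mb in CanFam3.1. The rule took 487 genes of the 30951 in the table. Of these, 340 lie before the lambda region and 147 after it. The chromosome was chosen by its lower mean in the same lymphoma libraries, and the interval left out was selected on a stretch seen to be low in them. Group values over these genes are therefore given as a description, with no p.

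Blood was taken for RNA sequencing from 7 dogs with lymphoma, in which lymphocytes grow as a cancer, and from 7 non-lymphoma dogs with some other disease, the controls. The labels give no breed, age, sex, type of lymphoma or treatment, and do not name the other disease, so the controls are not healthy dogs of a known kind. Every library is its own sample in the labels. Total counts ran from 9845059 to 14831589 in lymphoma against from 13522628 to 21610927 in control libraries. The table pairs no identifier with a gene name, so members are given by position and exon number, and neither the blood label nor any cell type could be checked against marker genes. In the plots, L1 to L7 and N1 to N7 are replicates 1 to 7 of each group.

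As background, each B cell joins gene segments of the lambda or the kappa locus to make the light chain of its antibody, so the locus is transcribed almost only in cells of the B lineage. Most genes around it on the chromosome are not antibody genes. In the RefSeq gene table of another assembly, UU_Cfam_GSD_1.0, chromosome 26 holds 464 protein-coding genes, 39 V segments and 5 C regions. Among the genes it lists there are CHEK2, a kinase of the DNA damage checkpoint; XBP1, a transcription factor needed by plasma cells; and OAS1, an interferon-induced sensor of double-stranded RNA. None of these could be tied to a row of the count table, and positions were not compared between assemblies.

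Without the lambda region the difference in mean level between the groups on chromosome 26 was smaller, and it lay almost wholly on the far side of that region. Over the 318 tested multi-exon genes of the whole chromosome, the mean log2 CPM (read counts scaled to library size, on a log2 scale) was 3.59 ± 0.12 in lymphoma against 3.84 ± 0.09 in control libraries (n = 7 each, SD), a difference of -0.25. Over the 292 tested members it was 3.76 ± 0.11 in lymphoma against 3.87 ± 0.07 in control libraries (n = 7 each, SD), a difference of -0.12. The 26 tested genes of the lambda region differed by -1.75, with 1.71 ± 1.10 in lymphoma against 3.46 ± 0.40 in control libraries (n = 7 each, SD). With the region included, every lymphoma library lay below every control library. Without it, 4 of 7 lymphoma libraries did, and the groups overlapped. The median log2 fold change hardly moved, at -0.14 over the 318 genes and -0.12 over the 292 members. Negative values made up 62.3% and 61.6% of them.

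Multi-exon genes of the other placed chromosomes differed by -0.02 in mean log2 CPM. Set against those genes within each library, the member mean was -0.05 ± 0.09 in lymphoma against 0.04 ± 0.08 in control libraries (n = 7 each, SD). By this measure 3 of 7 lymphoma libraries lay below all controls. Members as a whole took 1.35 ± 0.12% of counts in lymphoma against 1.37 ± 0.18% in control libraries (n = 7 each, SD), a difference within the spread; the most abundant members weigh most in that share. In bulk blood, fewer cells of a type and less RNA per cell cannot be told apart.

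Of the 487 members, 292 passed the filter on low counts and were tested with all other genes by edgeR's quasi-likelihood test. The other 195 were not tested. Of those, 7 had no count in any library, and the median total over the 14 libraries was 10 counts. Of the tested members, 23 were called lower and 20 higher in lymphoma at an adjusted p under 0.05, or 7.88% and 6.85%. Over all 12836 tested genes 7.4% were called lower and 9.21% higher, so the share called lower is near that of the table as a whole. The number of lower calls moved with single libraries: it was 14 without lymphoma replicate 2, 15 without replicate 4 and 12 without replicate 5. Higher calls numbered 14 to 23 with any 1 library left out. The median log2 fold change of tested members was -0.12, beside -0.05 for all tested genes and -0.04 for multi-exon genes of the other placed chromosomes. A negative log2 fold change, whatever its p, was found for 180 tested members (61.6%) and for 52.7% of all tested genes.

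The sides of the lambda region differed from each other. Before it, 215 tested members averaged 3.98 ± 0.10 log2 CPM in lymphoma against 3.98 ± 0.08 in control libraries (n = 7 each, SD), a difference of -0.01. After it, 77 tested members had 3.14 ± 0.15 in lymphoma against 3.57 ± 0.13 in control libraries (n = 7 each, SD), a difference of -0.42. The lymphoma libraries ran from 2.89 through a median of 3.16 to 3.30 there, and the control libraries from 3.37 through 3.56 to 3.74. All 7 lymphoma libraries were thus below all 7 control libraries after the region, while before it 1 of 7 was. The mean after the region minus the mean before it, taken within each library so that scaling cancels, was -0.84 ± 0.07 in lymphoma against -0.42 ± 0.16 in control libraries (n = 7 each, SD), again with no overlap.

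**Figure D1:**
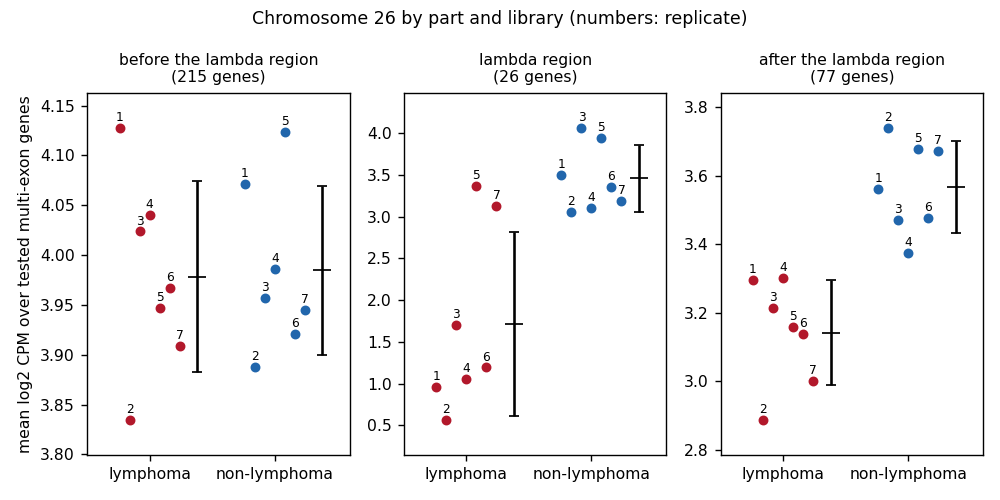
Mean log2 CPM over the tested multi-exon genes before, within and after the lambda region of chromosome 26, with 1 point per library labelled by replicate, lymphoma on the left of each panel; the bars are the mean and SD of 7 libraries, and the vertical axes differ and do not start at 0. The groups overlap before the region and are apart after it, where lymphoma libraries lie at 2.89 to 3.30 and control libraries at 3.37 to 3.74.

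Calls split the same way by count. Before the region 13 of 215 tested members were called lower and 18 higher, or 6.05% and 8.37%. After it 10 of 77 were called lower and 2 higher, or 13% and 2.6%, beside 7.4% and 9.21% of all tested genes. Among multi-exon genes of the other placed chromosomes with 26 or more gene starts within 500 kb, 12.6% were called lower and 2.93% higher. The members after the region had a median of 33 such starts, and their share of lower calls was near that of genes in dense surroundings. The sets are not alike, since 6 of the 77 had 0 to 11 starts, 9 had 12 to 15 and 2 had 16 to 22. Of these, 1, 2 and 0 were called lower. The lower calls before the region fell to 6 in number without lymphoma replicate 2 or 4, to 5 without lymphoma replicate 5, and to 8 without lymphoma replicate 7 or control replicate 1, 5 or 6. Those after it numbered 7 to 14 in the same runs. The higher calls after the region numbered 1 in place of 2 without any of lymphoma replicates 2, 4, 5 and 7 or of control replicates 1, 2, 3, 4, 6 and 7. After the region 62 of 77 tested members (80.5%) had a negative log2 fold change, with a median of -0.38. Before it 118 of 215 did (54.9%), with a median of -0.05. No other placed chromosome, of 38, had a median log2 fold change of its multi-exon genes under that of the stretch after the region, and the lowest was -0.29 on chromosome 20. For all 292 tested members together, at -0.12, 6 of the 38 had a lower median. A stretch of 77 genes can vary more than a whole chromosome, and this order was not tested.

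**Figure D2:**
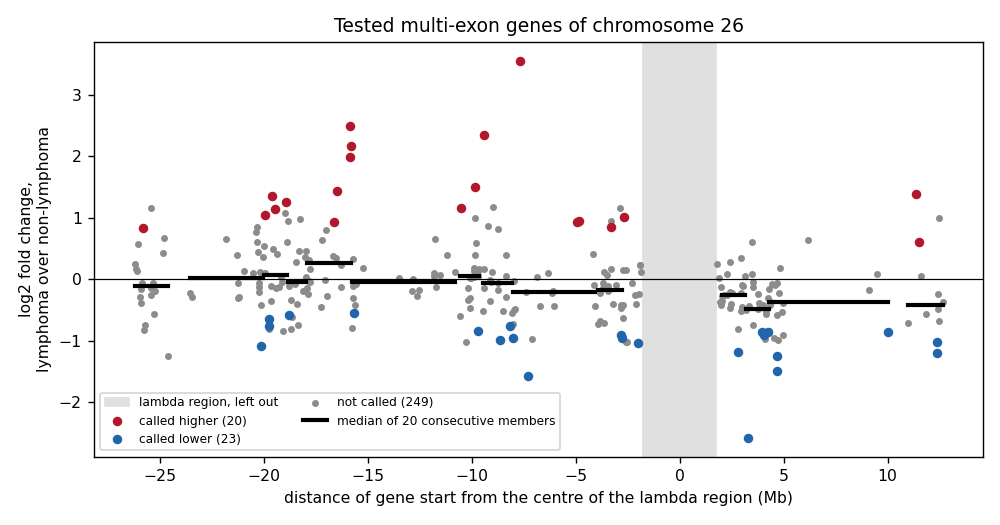
Log2 fold change of each of the 292 tested members against the distance of its start from the centre of the lambda region in Mb, with the genes called lower (23) or higher (20) at an adjusted p under 0.05 in colour and the left-out region in grey. The black lines, medians of 20 consecutive tested members (12 in the last group, and none drawn across the region), lie between -0.21 and 0.27 on the left, of either sign, and between -0.49 and -0.26 on the right.

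In fixed bins of 5 Mb the difference was of either sign up to 20 Mb and negative in every bin from there on. In the bin starting at 5 Mb, with 73 tested members, the mean log2 CPM was 4.36 ± 0.07 in lymphoma against 4.29 ± 0.04 in control libraries (n = 7 each, SD), and 4 of 7 lymphoma libraries were above every control library. In the bin starting at 10 Mb, with 21, the difference was 0.24, and no lymphoma library lay below the control median. Its highest library was control replicate 5, its median log2 fold change was 0.0004, and 10 of the 21 were negative. It holds 3 neighbours called higher, at 2.50, 1.99 and 2.17. The 20 tested members that follow these, starting at 10504236 to 15456004, differed by -0.08 in mean log2 CPM. In the bins starting at 0 and 15 Mb the differences were -0.04 and -0.08. From 20 Mb to the region, 43 tested members differed by -0.16, with 5 of 7 lymphoma libraries below every control. So a smaller difference was already present short of the region.

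Past the region the members between 28025987 and 29778086 differed by -0.37 in mean log2 CPM, with 25 of 33 negative. Of these 2 were called lower (6.06%, under the 7.4% of all tested genes) and 0 higher. The bin starting at 30 Mb differed most. Its 29 tested members had a mean of 2.91 ± 0.24 in lymphoma against 3.46 ± 0.17 in control libraries (n = 7 each, SD), a difference of -0.56. There the lymphoma libraries ran from 2.48 to 3.17 and the control libraries from 3.24 to 3.69, so that they did not overlap. Of the 29 members 27 had a negative log2 fold change (93.1%), 5 were called lower (17.2%) and 0 higher, and the median was -0.48. Over all tested genes 52.7% were negative and 7.4% called lower. The bin had a median of 35 gene starts within 500 kb. At 23 to 36 and at 37 or more starts, 63% and 74.9% of multi-exon genes of the other placed chromosomes were negative. Of such genes, 221 of 2239 and 320 of 2304 were called lower. A run of 27 consecutive tested members, starting at 29765936 to 31013607, was negative without a break. In the last bin, from 35 Mb on, 15 tested members differed by -0.28, and only 1 lymphoma library lay below all others, so the groups overlapped again.

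**Figure D3:**
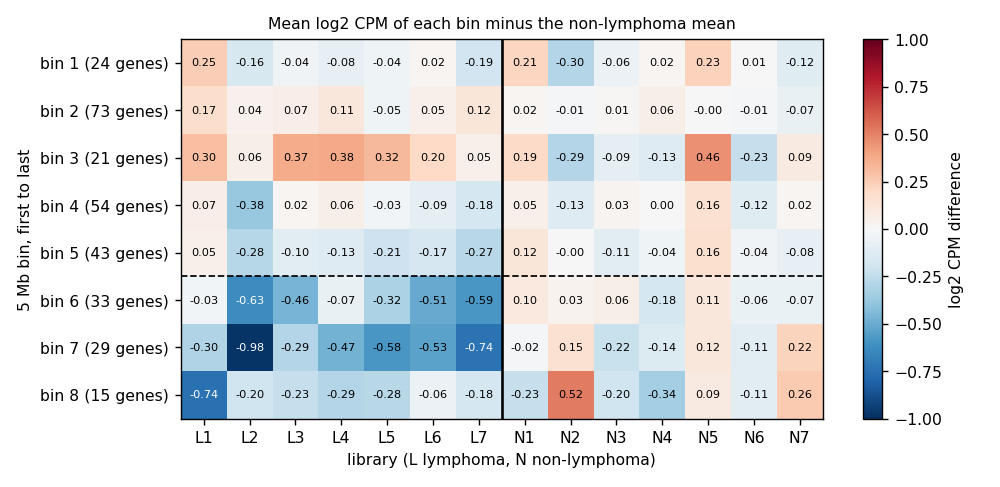
Mean log2 CPM of the tested members of each 5 Mb bin (rows, first to last along the chromosome) in each library (columns, L1 to L7 lymphoma, N1 to N7 non-lymphoma), minus the mean of the 7 control libraries. The dashed line marks the lambda region, and the lowest cells are lymphoma replicate 2 (-0.98) and replicate 7 (-0.74) in the bin starting at 30 Mb and replicate 1 (-0.74) in the last bin.

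By library, the lymphoma columns differed in how far they lay below the controls. Replicate 7 had 194 of the 292 tested members (66.4%) below their control median, replicate 2 had 182 (62.3%), and replicate 1 had 137 (46.9%). Replicate 2 had 110 members (37.7%) below every control library, where 30.2% of the multi-exon genes of the other chromosomes were. Replicate 7 had 101 (34.6%), beside 24.6% of the other genes, and replicate 1 had 62 (21.2%), beside 23.5%. Replicate 1 also had 85 members (29.1%) above every control library, close to the 26% of the other genes. It was the lymphoma library with the highest member mean, 3.91, which lies inside the control range of 3.80 to 4.01. Replicates 2 and 7 were also the shallowest libraries, with 9846590 and 9845059 counts. With all libraries thinned to the smallest total, the difference was -0.10 over members and -0.41 after the region.

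The order of the lymphoma libraries was not that of their lambda region. Replicates 5 and 7 had lambda region means of 3.37 and 3.12, inside the control range of 3.06 to 4.06, yet their means after the region were 3.16 and 3.0, below every control library. Replicate 1 had a lambda mean of 0.96, the second lowest, and the second highest lymphoma mean after the region, 3.30. Only replicate 2 was lowest in both, with 0.57 and 2.89. Thus the libraries with lambda means inside the control range still lay low after the region. As a share of all counts, the multi-exon genes of the lambda region took 0.084% in replicate 5, inside the control range of 0.062 to 0.116%. In replicate 7 they took 0.043%, below that range.

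The labels write sample numbers with 5 digits for all 7 control and for 2 lymphoma libraries, replicates 5 and 6, and do not say whether the form marks a batch. Within those libraries the difference was -0.13 over members, -0.03 before and -0.42 after the region. With filter and scaling redone on them alone, it was -0.16, -0.08 and -0.38. With 2 lymphoma libraries, 1 of 321 tested members was called lower and 3 higher, or 1.25% in all, beside 0.713% of all genes tested there.

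Level and gene density varied along the chromosome with the difference. After the region, the 33 tested members in the lowest tertile by level (average log2 CPM up to 2.94) had a mean of 1.27 ± 0.20 in lymphoma against 1.86 ± 0.13 in control libraries (n = 7 each, SD), a difference of -0.58 with all 7 lymphoma libraries below. The 25 of the middle tertile differed by -0.29, with 4 libraries below, and the 19 of the highest tertile by -0.32, with 2 below. Separation of the library means was therefore clearest in weakly expressed genes, the tertile with the most genes. By gene, 28 of 33, 18 of 25 and 16 of 19 had a negative log2 fold change, from the lowest to the highest tertile. Their medians were -0.45, -0.22 and -0.38, so the fall was not confined to weak genes. Before the region the tertiles differed by -0.09, 0.02 and 0.04. As a share of all counts, the members after the region took 0.225 ± 0.012% in lymphoma against 0.266 ± 0.049% in control libraries (n = 7 each, SD), and the ranges overlapped.

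Across the genome, multi-exon genes in denser surroundings had lower fold changes. Those of the other placed chromosomes with 0 to 11 annotated gene starts within 500 kb had a median log2 fold change of 0.21, those with 23 to 36 one of -0.20, and those with 37 or more one of -0.33. Tested members had a median of 22 such starts, with 21 before the region and 33 after it. At 23 to 36 starts, the 39 members after the region had a median of -0.38 and the 84 before it one of -0.08. At 37 or more, the 21 members after the region had -0.39. Lower calls after the region were near the share of like genes at 23 or more starts. At 23 to 36 starts, 4 of the 39 were called lower, beside 221 of 2239 genes of the other placed chromosomes. At 37 or more, 3 of the 21 were, beside 320 of 2304. At 0 to 11, 12 to 15 and 16 to 22 starts, 1 of 6, 2 of 9 and 0 of 2 members after the region were called lower. Of the genes of the other placed chromosomes in those classes, 82 of 2656, 79 of 2008 and 135 of 2404 were, so the first 2 shares were smaller there. After the trend of log2 CPM on density was removed within each library, the difference was -0.09 over members, -0.01 before and -0.31 after the region. All 7 lymphoma libraries were still below all others after it. The bin starting at 30 Mb then differed by -0.37, with 5 of 7 lymphoma libraries below every control, so that its groups overlapped. The last bin then differed more, by -0.41, with 2 of 7 below.

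**Figure D4:**
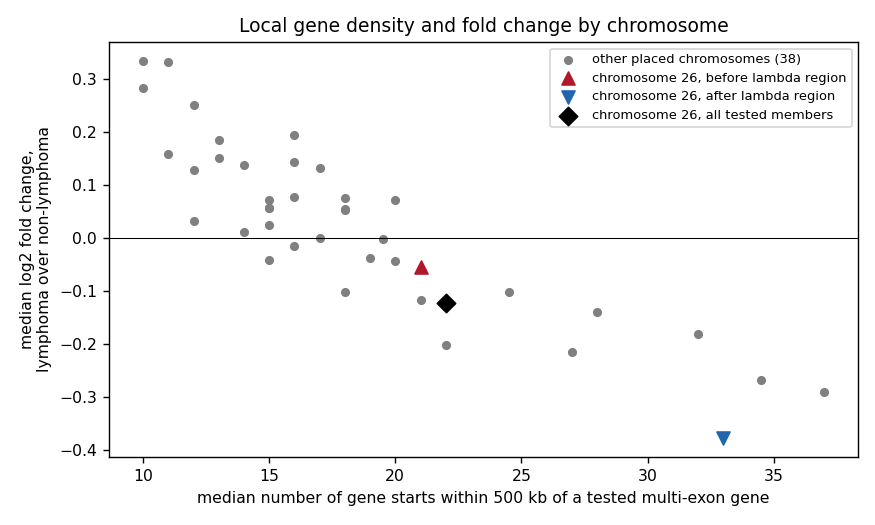
Median log2 fold change of tested multi-exon genes against their median number of gene starts within 500 kb, with 1 grey point for each of the 38 other placed chromosomes and separate marks for the chromosome 26 members. The 77 members after the lambda region (33 starts, -0.38) lie lower than chromosomes of like density, and the 215 before it (21 starts, -0.05) lie among them.

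Among members, those of few exons held most of the falls. Of 102 tested members with 2 to 7 exons, 15 were called lower and 5 higher, or 14.7% and 4.9%, beside 7.97% and 5.82% of such genes on the other placed chromosomes. Of 98 with 15 or more exons, 6 were called lower and 10 higher, or 6.12% and 10.2%, beside 6.82% and 13.2% of such genes on the other placed chromosomes. The 23 members called lower spanned a median of 13395 bases and the 20 called higher 54488 bases. The same order was seen on the other placed chromosomes, with medians of 15187 and 49659 bases. The median log2 fold change was -0.12 for the 139 tested members on the plus strand and -0.12 for the 153 on the minus strand. Of the tested members 83 overlapped another annotated gene, and since counting used no strand option, their reads are uncertain to that extent. The other 209 had a median of -0.12, with 14 called lower and 17 higher, or 6.7% and 8.13%, near the shares of all tested genes.

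The genes that fell most clearly were modest in size of change. ENSCAFG00000012559, a 16-exon gene at 23485797 to 23504346, ran from 13.7 through a median of 28.1 to 40.0 CPM in lymphoma against from 50.2 through 54.8 to 58.1 CPM in control libraries. The groups did not overlap, and the controls lay within a narrow band. Its log2 fold change was -0.95 (SE 0.18, adjusted p = 0.00484 by edgeR), and it kept its call with any library left out and within the 5-digit libraries (-1.07, adjusted p = 0.0482 by edgeR). ENSCAFG00000014151, a 5-exon gene at 29032258 to 29038340, had 1.35 to 5.24 CPM with a median of 3.52 in lymphoma against 5.50 to 9.04 CPM with a median of 7.62 in control libraries. Its groups did not overlap either, although the lowest control came close to the highest lymphoma library. Its log2 fold change was -1.18 (SE 0.28, adjusted p = 0.0116 by edgeR).

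Members with groups wholly apart were few: 3 with lymphoma lower and 2 with lymphoma higher, where 1.75% and 2.03% of all tested genes were. The third lower one, a 7-exon gene at 17604261 to 17743177, had 0.759 to 4.61 CPM in lymphoma against 5.19 to 7.34 CPM in control libraries (log2 fold change -0.98, SE 0.28, adjusted p = 0.0265 by edgeR). It overlaps 2 other genes, 1 of them on the same strand, and its call was lost without control replicate 6 (adjusted p = 0.0528). The higher ones were a 24-exon gene at 9623575 to 9699139, singled out after its values were seen, and ENSCAFG00000015667, an 11-exon gene at 37750649 to 37794149. The first had 24.8 to 52.2 CPM in lymphoma against 11.3 to 24.5 CPM in control libraries. The second had 30.5 to 46.0 CPM with a median of 35.7 in lymphoma against 16.2 to 28.0 CPM with a median of 23.5 in control libraries (log2 fold change 0.61, SE 0.15, adjusted p = 0.0138 by edgeR). It lies well past the lambda region, so the far end of the chromosome also held a gene with every lymphoma library higher.

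The largest fall was that of a 4-exon gene at 29528366 to 29568522, with 0.525 to 4.04 CPM in lymphoma against 2.86 to 30.2 CPM in control libraries, the top value in replicate 5. Its counts were 6 to 48 in lymphoma against 65 to 538 in control libraries, the log2 fold change was -2.58 (SE 0.62, adjusted p = 0.0127 by edgeR), and it was -1.91 without control replicate 5. It overlaps another gene on the same strand. In the bin starting at 30 Mb, a pair of short neighbouring genes fell, while the tested members on either side were at -0.09 and -0.05. A 4-exon gene at 30904718 to 30905951 had 1.68 ± 1.13 CPM in lymphoma against 4.82 ± 1.58 CPM in control libraries (n = 7 each, SD). A 3-exon gene at 30918811 to 30920868 had 6.42 ± 2.88 CPM in lymphoma against 15.5 ± 2.95 CPM in control libraries (n = 7 each, SD). Their log2 fold changes were -1.49 and -1.25 (SE 0.38 and 0.29, adjusted p = 0.0164 and 0.0114 by edgeR), and neither overlaps another gene. The other 3 lower calls of that bin had log2 fold changes of -0.91, -0.85 and -0.85.

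At the far end, a pair of overlapping genes on opposite strands was called lower. The 11-exon gene at 38608457 to 38624739 had a log2 fold change of -1.02 and the 6-exon gene at 38623214 to 38644170 one of -1.20 (adjusted p = 0.0429 and 0.0333 by edgeR). Reads in the short stretch that both cover cannot be told apart without strand. The second ran from 16.0 to 31.2 CPM in lymphoma against from 15.2 to 95.6 CPM in control libraries, so every lymphoma library lay within the range of the controls. The calls were lost in 9 and 7 of the 14 leave-one-out runs (adjusted p up to 0.0939).

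The largest falls before the region were not neighbours of each other. Smaller ones could be: the adjacent tested members starting at 6523070 and 6526304 were both called lower, at -0.75 and -0.65. A 5-exon gene at 6145937 to 6168625 had 126 ± 46.7 CPM in lymphoma against 268 ± 69.2 CPM in control libraries (n = 7 each, SD; log2 fold change -1.09, SE 0.25, adjusted p = 0.0106 by edgeR), and it overlaps a gene on the other strand. A 2-exon gene at 18250295 to 18259765 had 186 ± 64.9 CPM in lymphoma against 359 ± 154 CPM in control libraries (n = 7 each, SD; log2 fold change -0.95, adjusted p = 0.028 by edgeR), a call lost in 6 of the 14 leave-one-out runs. The 26-exon gene at 18976361 to 19075458 fell by 1.58 on the log2 scale (adjusted p = 0.0474 by edgeR), but its control libraries ran from 2.77 to 32.5 CPM, and it was at -0.90 without control replicate 2. Its call was lost in 10 of the 14 leave-one-out runs. A 6-exon gene at 24244772 to 24255131, near the region's edge, was at -1.04 (adjusted p = 0.0478 by edgeR), with its highest control value, 73.5 CPM, in replicate 6. It was at -0.69 without that library, and its call too was lost in 10 of the 14 runs.

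Of the 20 members called higher, 18 lay before the region. Between 10385447 and 10449009, 3 consecutive tested members on the plus strand rose together, none overlapping another gene. ENSCAFG00000023556, a 7-exon gene at 10385447 to 10396733, ran from 77.9 through a median of 271 to 464 CPM in lymphoma against from 15.5 through 42.4 to 130.0 CPM in control libraries. Of the lymphoma libraries 6 lay above every control, and replicate 1 was the exception. It was 5.65-fold higher, with a log2 fold change of 2.50 (SE 0.43, adjusted p = 0.00295 by edgeR), and it was also called within the 5-digit libraries (2.82, adjusted p = 0.0371 by edgeR).

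The next gene, with 18 exons at 10404414 to 10423039, had 362 ± 173 CPM in lymphoma against 91.2 ± 71.9 CPM in control libraries (n = 7 each, SD; log2 fold change 1.99, SE 0.45, adjusted p = 0.0103 by edgeR). The third, with 12 exons at 10432042 to 10449009, had 243 ± 142 CPM in lymphoma against 53.8 ± 34.0 CPM in control libraries (n = 7 each, SD; log2 fold change 2.17, SE 0.46, adjusted p = 0.00767 by edgeR). Lymphoma replicate 1 was among the lowest of its group in all 3 genes, and control replicate 5 was the highest control in each. All 3 calls held with any library left out, and neighbours of like sequence could share reads, which was not examined. A 6-exon gene at 16837376 to 16850388 rose about as much, with 60.8 ± 39.9 CPM in lymphoma against 11.9 ± 6.65 CPM in control libraries (n = 7 each, SD; log2 fold change 2.35, SE 0.50, adjusted p = 0.00759 by edgeR). Its lymphoma replicate 1 was lowest as well, at 11.9 CPM.

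**Figure D5:**
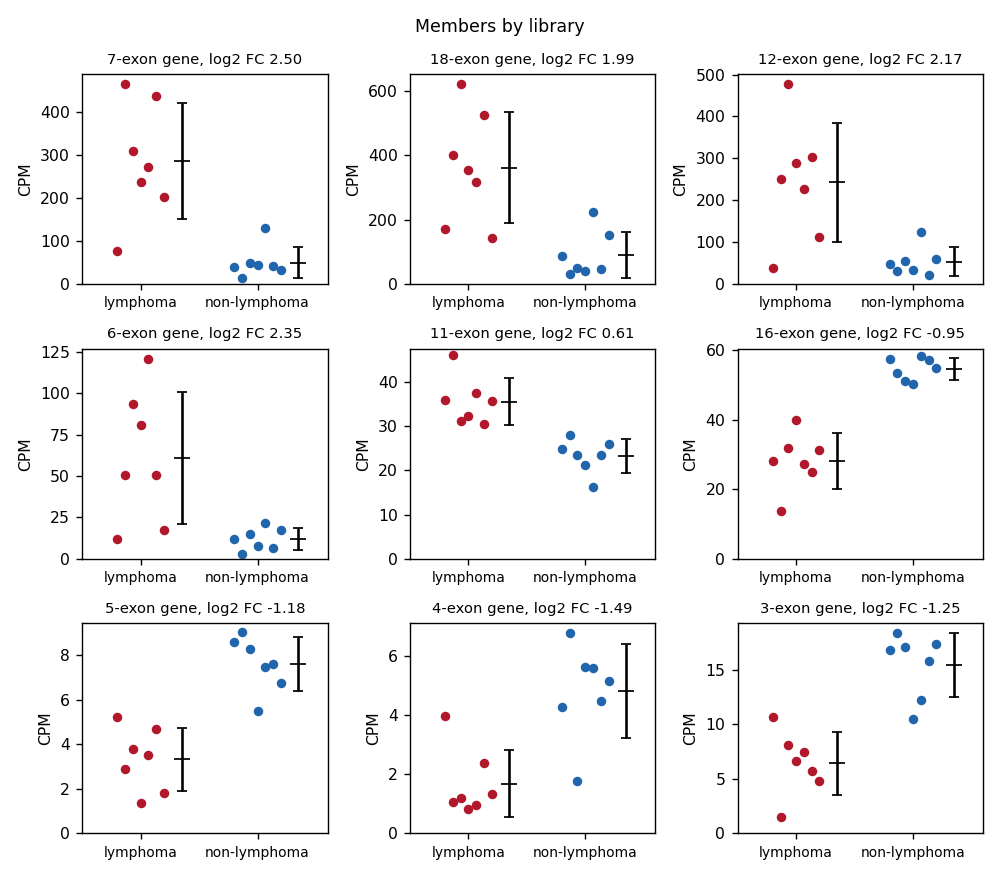
CPM of 9 members in each library, lymphoma on the left of each panel, with the mean and SD of 7 libraries beside the points and every axis starting at 0. The top row holds the 3 neighbours between 10385447 and 10449009, followed by the rising genes at 16837376 and 37750649, and then the falling genes at 23485797, 29032258, 30904718 and 30918811.

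The largest fold belonged to a weakly expressed 9-exon gene at 18573098 to 18691240. It had 0 to 23.9 CPM in lymphoma, with 0 counts in replicate 7 and 5 in replicate 2, and 0.0701 to 1.68 CPM in control libraries. Its log2 fold change was 3.55 (SE 0.81, adjusted p = 0.0106 by edgeR), and the other 5 lymphoma libraries lay above every control. Replicate 2 lay within the control range, and the 0 counts of replicate 7 stand against 1 count in the lowest control.

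Several of the most abundant members also rose. A 20-exon gene at 16426234 to 16547119, with the highest mean CPM of all members, had 815 to 5360 CPM in lymphoma against 393 to 1410 CPM in control libraries. Its log2 fold change of 1.49 (SE 0.42, adjusted p = 0.0244 by edgeR) was 1.07 without lymphoma replicate 7, and the call was lost without lymphoma replicate 2 or 7 (adjusted p up to 0.0519). It overlaps 4 genes, 3 of them on its strand. A 78-exon gene at 9767169 to 9954118 had 887 ± 502 CPM in lymphoma against 330 ± 130 CPM in control libraries (n = 7 each, SD; log2 fold change 1.43, adjusted p = 0.0165 by edgeR), called with any library left out. A 4-exon gene at 37586727 to 37626618 was at 1.38 (adjusted p = 0.0477 by edgeR), with 268 to 1840 CPM in lymphoma against 104 to 641 CPM in control libraries, a call lost in 10 of the 14 leave-one-out runs. In these 3 genes the highest lymphoma values were those of replicates 2 and 7, the libraries whose other members lay lowest.

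The other 3 of the 6 most abundant members did not pass the test. The gene at 9722083 to 9746614 was at 0.35 (adjusted p = 0.385 by edgeR), that at 9970416 to 9974791 at 0.23 (adjusted p = 0.663 by edgeR) and that at 16148460 to 16153614 at 0.02 (adjusted p = 0.974 by edgeR). Of the genes with the lowest p of their bin, those not yet named were a 47-exon gene at 433879 to 479917 (log2 fold change 0.83, adjusted p = 0.044 by edgeR, lost in 10 of the 14 leave-one-out runs) and a 21-exon gene at 7308902 to 7375376 (1.26, adjusted p = 0.0105 by edgeR). Each had all 7 lymphoma libraries above the control median.

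The genes at the edges of the region left out did not pass the test. The last tested member before it, with 32 exons at 24414195 to 24502404, had 28.4 ± 5.88 CPM in lymphoma against 26.2 ± 5.88 CPM in control libraries (n = 7 each, SD), and it starts inside the rule's limit although its end crosses it. The first tested member after it, with 15 exons at 28025987 to 28125695, had 22.3 ± 3.56 CPM in lymphoma against 18.8 ± 2.27 CPM in control libraries (n = 7 each, SD). Their log2 fold changes were 0.12 and 0.25 (adjusted p = 0.656 and 0.221 by edgeR). Both were slightly higher on average in lymphoma, within the spread between libraries.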

How the data were processed

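RNA of whole blood from 7 lymphoma and 7 non-lymphoma dogs was sequenced. Per the file headers, the deposited values are raw counts: the authors summed read pairs over exons by gene with featureCounts 2.0.1, using exons of the Ensembl release 103 annotation of CanFam3.1, with no strand option. Subread 2.0.1, HISAT2 2.2.1 and DESeq2 are also named, per the submitters' processing notes. No identifier matched the reference gene table, so no names, gene lists or sequences are given.

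The groups were compared with edgeR 4.0.16 (quasi-likelihood F test, TMM factors, filterByExpr, group as the only term) in R 4.3.3, fitted on the whole table with Benjamini-Hochberg adjustment over 12836 genes at 0.05. The coefficient of biological variation came to 41.5%, and standard errors are the absolute log2 fold change over the square root of F. Library means used log2 CPM with a prior count of 2. The fit was tested on simulated data. Single genes were those called with an average log2 CPM of at least 1 (the 12 largest falls and 8 largest rises), the 6 members with the highest mean CPM, the lowest p in each 5 Mb bin, and the genes at the region's edges. Members and rules were chosen with earlier results of these data known. All p-values rest on the spread among 7 libraries a group, which the labels call samples and no more, and depth limits precision too.

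Same-numbered libraries come from dogs of different groups, and no label pairs them. Their deviations from the group means had r from -0.34 to 0.35. These were not compared with r between libraries of unlike number, so they cannot decide whether numbers pair libraries. Alternatives covered scaling, filters, DESeq2 1.42.0, limma 3.58.1, depth, libraries, the region's limits and gene density. Python 3.11.15 was used for tables and plots.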

Additional observations from a re-analysis of the deposited data

Results flagged for a closer look

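In groups of 7 libraries, a library was noted when its gap to the next one, as a share of the whole range, exceeded the critical value of Dixon's test. Of 84 groups examined 6 held such a library, where chance gives about 1 in 20, or 4.2. Lymphoma replicate 1 was lowest in the mean of the last bin, from 35 Mb on (0.65). Lymphoma replicate 2 was lowest in the genes starting at 17604261 (0.62) and 30918811 (0.58). Lymphoma replicate 7 was highest of its group in the gene starting at 24244772 (0.68). Non-lymphoma control replicate 7 was highest in the gene starting at 9722083 (0.61), and non-lymphoma control replicate 3 lowest in the gene starting at 30904718 (0.65).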

How the results depend on the processing

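The sides of the lambda region kept their order under every scaling, filter and depth setting run. The difference in mean log2 CPM after it was -0.48 with upper-quartile factors, -0.42 with RLE factors and -0.40 without a filter on low counts, and -0.45 to -0.38 with 1 library left out. The difference before it changed sign within 0.06 of 0 between scalings. Without a filter, where all tested genes had a median log2 fold change of -0.45, the member median was -0.40, the member mean differed by -0.24, that before the region by -0.18, and that after it, relative to other chromosomes, by -0.22. With medians over genes in place of means, the whole chromosome differed by -0.094. With 1 library left out, member differences ran from -0.14 to -0.09 and median log2 fold changes from -0.17 to -0.09. Lower calls then numbered 12 to 29 (5 to 15 before and 7 to 14 after the region), and higher calls 14 to 23 (13 to 21 before and 1 to 2 after).

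At a threshold of 0.01, 1 member was lower and 4 higher, all before the region, leaving 0 and 0 after it. Within the 5-digit libraries 1 was lower and 3 higher, again with 0 and 0 after it. With the replicate number as a block, 9 were lower (3 before, 6 after) and 8 higher (8 before, 0 after). No label pairs libraries by that number, and 725 genes of the whole table were called in that run. Higher calls after the region were 1 with upper-quartile factors and with limma-voom and 0 without a filter. Among members that overlap no other gene 14 were lower, 5 of them after the region. DESeq2 called 61 members (20.9%, beside 24.8% of all tested genes) and limma-voom 36 (12.3%, beside 15.5%). Leaving out a wider region, from 23.5 to 29 Mb, or adding single-exon genes changed no count by over 1.5 times. A prior count of 0.5 left every mean within 1 SD of its value. Removal of the density trend took the difference after the region from -0.42 to -0.31. It took the first bin past the region from -0.37 to -0.20, the next from -0.56 to -0.37 and the last from -0.28 to -0.41. No named gene changed direction while called. The 195 members with low counts were not tested, and how far depth or low expression set that was not separated. Thinned to the smallest total, 285 members were tested.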
